A study of Mus musculus with 8 samples.

Results

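The genes described here are 7 members of the Eph receptor and ephrin families: the receptors Ephb2, Ephb3, Ephb4 and Epha2 and the ligands Efnb1, Efnb2 and Efna1. They were taken as a named list of genes connected with the sorting of cells between the crypt and the villus of the intestine, and each was found by its Ensembl gene identifier. All 7 had a value, among 13451 genes with one. Messenger RNA was sequenced in bulk from mouse intestinal organoids, which are three-dimensional epithelial cultures grown from crypts. The groups were 4 samples from wild-type littermates (WT) and 4 from MG53 transgenic mice (MG53-TG), which overexpress MG53, a tripartite motif protein encoded by Trim72 and best known for membrane repair in muscle. Crypts of both genotypes were embedded in Matrigel, a basement membrane extract, and grown in IntestiCult OGM medium, and no other treatment is named for them. The age of the mice and the promoter of the transgene are not given in the sources used here. The paper also describes crosses of MG53-TG to a reporter line that marks Lgr5-expressing stem cells. It gives an organoid transcriptome to those crosses in one place and to MG53-TG and WT in another. The labels name MG53-TG and WT only. Nothing says whether the samples of a group came from separate animals, so p-values here measure the spread between these samples, which may be technical.

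Eph receptors are receptor tyrosine kinases, and ephrins are their membrane-bound ligands, held by a lipid anchor in the A class and by a transmembrane segment in the B class. Contact between cells starts forward signalling in the cell with the receptor and reverse signalling in the cell with the ephrin, and commonly ends in repulsion. In the intestinal epithelium EphB receptors, which are targets of Wnt signalling, are known from the crypt base and ephrin-B ligands from the cells towards the villus, and the boundary between them keeps Paneth cells and proliferating cells in the crypt.

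The values were FPKM, fragment numbers scaled by transcript length and by the mapped total of the sample, deposited for transcription start and end events and summed here for each gene. Read numbers cannot be had from these values, so the depth is unknown. Trim72 had no row in the 4 WT samples and 16.4, 27.4, 31.9 and 36.5 FPKM in the transgenic ones, which matches the labels. The organoids differed widely between genotypes. The summed FPKM of 11 enterocyte markers was 704 to 834 in WT and 8689 to 11486 in MG53-TG, and that of 8 stem cell markers was 533 to 715 in WT and 63.2 to 323 in MG53-TG. In bulk samples fewer cells of a type and less RNA per cell cannot be told apart. Of 10420 genes whose mean reached 0.5 FPKM, 44.6% differed between genotypes by limma (adjusted p up to 0.05), 15.6% being higher and 29.1% lower with the transgene. Over all genes tested the median of the log2 fold changes was -0.17 with the values as deposited and -0.01 after median-of-ratios scaling, a shift of 0.16, and after that scaling 20.4% were called higher and 20.4% lower.

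All 7 members passed the limma test, 6 lower and 1 higher in MG53-TG, against the 44.6% of all genes tested that passed. The receptors Ephb2, Ephb3, Ephb4 and Epha2 and the ligand Efna1 were lower in MG53-TG by 1.95 to 3.02 times in group means. Efnb2, a ligand of the B class, was higher by 1.97 times. Efnb1 was lower by 1.32 times, and its call did not hold after scaling. The median log2 fold change of the 7 members was -1.03, beside -0.17 over all genes tested. The WT and MG53-TG values did not overlap for 5 members, namely Ephb3, Ephb4, Epha2, Efna1 and Efnb2, and 44.7% of all genes tested had groups without overlap. Of the 5, 4 were lower in MG53-TG, as 29.0% of all genes tested were without overlap, and 1 was higher, as 15.7% of all were.

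**Figure D1:**
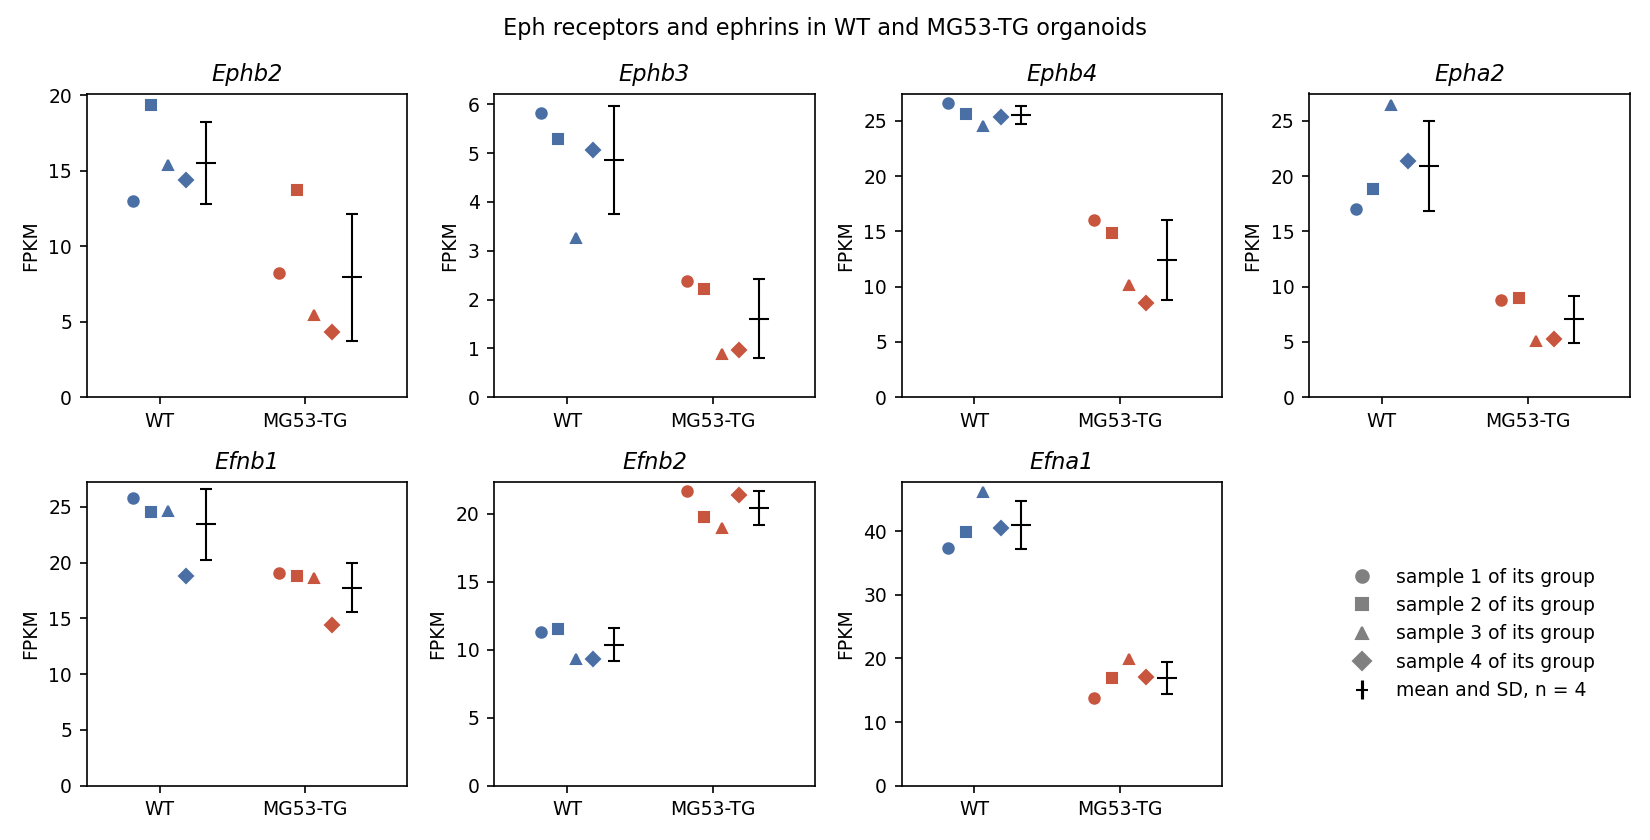
FPKM (vertical axes, from 0) of the 7 members in each WT and MG53-TG sample, with the mean and SD of each group beside the points (n = 4). Efnb2 is the member whose MG53-TG samples all lie above the WT samples, and Ephb2 and Efnb1 are the members whose groups overlap.

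Ephb2 is the EphB receptor most used to mark crypt base and progenitor cells. The gene (ENSMUSG00000028664) lies on the minus strand at chr4:136647539-136835988 in GRCm38. It measured 13.0, 19.3, 15.4 and 14.4 FPKM in WT samples 1 to 4, and 8.22, 13.8, 5.43 and 4.34 FPKM in MG53-TG samples 1 to 4. MG53-TG sample 2 lay above WT sample 1, and the other MG53-TG samples lay below all WT samples. The group means were 15.5 ± 2.73 and 7.94 ± 4.21 FPKM (SD, n = 4 each). The log2 fold change, here and below taken on log2(FPKM + 1) and as MG53-TG minus WT, was -0.98 with an SE of 0.29, and limma gave an adjusted p of 0.0252. A two-sided exact permutation test of the same difference gave p = 0.0571, where the smallest p that 4 against 4 samples allow is 0.0286. The call depended on single samples: the adjusted p of limma was 0.0677 without WT sample 2, 0.0543 without WT sample 3, 0.0675 without MG53-TG sample 3 and 0.0543 without MG53-TG sample 4. Counted from start events in place of end events, the log2 fold change of Ephb2 was -1.19 (limma adjusted p = 0.00833).

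An exon of Ephb2 was read in 3 forms of 166, 163 and 70 bases, whose shares varied widely between samples. The longest form, shown here because it differs from the next by a single codon, adds 3 coding bases at chr4:136675531-136675533, the start of exon 7 of the GENCODE transcript Ephb2-201. The bases are in capitals below, with 20 bases of the transcript on either side.
Ephb2-201, start of exon 7: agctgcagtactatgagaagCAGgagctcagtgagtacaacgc
The form with the CAG codon made up 5.72, 47.8, 37.5 and 6.44% of the FPKM of this exon in WT samples 1 to 4, and 9.72, 45.0, 44.1 and 32.0% in MG53-TG samples 1 to 4. The 70-base form was listed in 4 samples, at 5.43% in WT sample 3 and at 21.2, 10.7 and 20.8% in MG53-TG samples 2 to 4, and was not tested. Low and high shares of the form with the codon occurred in both genotypes, and a two-sided exact permutation test of the difference gave p = 0.6 (0.943 after Benjamini-Hochberg adjustment over 6 tests of transcript forms).

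Ephb3, a receptor that shares ephrin-B ligands with Ephb2 and is known from Paneth cells and the crypt base, was the lowest of the members in both genotypes. The gene (ENSMUSG00000005958) lies on the plus strand at chr16:21204755-21223305. It measured 5.82, 5.28, 3.27 and 5.05 FPKM in WT samples 1 to 4, and 2.39, 2.22, 0.875 and 0.957 FPKM in MG53-TG samples 1 to 4. Every MG53-TG sample was below every WT sample, and MG53-TG samples 3 and 4 were under 1 FPKM. The means were 4.85 ± 1.11 and 1.61 ± 0.804 FPKM, and the log2 fold change was -1.20 ± 0.24 (SE; limma adjusted p = 0.00465). The exact permutation test gave its smallest possible p of 0.0286. Ephb3 was called in each of the 8 fits that left out a sample.

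Ephb4, the receptor for which Efnb2 is the preferred ligand and which is also known from veins, was the most even of the members in WT organoids. The gene (ENSMUSG00000029710) lies on the plus strand at chr5:137350109-137378669. It measured 26.6, 25.6, 24.6 and 25.3 FPKM in WT samples 1 to 4, a coefficient of variation of 3.25%, and 16.0, 14.9, 10.1 and 8.55 FPKM in MG53-TG samples 1 to 4, a coefficient of variation of 29.1%. No MG53-TG sample reached the WT range. The log2 fold change was -1.03 ± 0.18 (SE; limma adjusted p = 0.00245; exact permutation p = 0.0286). End events of Ephb4 were listed in 5 of the 8 samples, and the log2 fold change from them alone was -0.49 (limma adjusted p = 0.0350). Because Ephb4 and Efnb2 are also vessel genes, the endothelial list was read beside them: Pecam1, Cdh5, Kdr and 5 others of its 10 genes had no row in any sample, and the remaining 2 summed to 2.07 to 3.99 FPKM in WT and 1.14 to 2.07 FPKM in MG53-TG.

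Ephb4 too was read with an exon of variable start. The longer form adds 27 coding bases at chr5:137362363-137362389, the start of exon 7 of transcript Ephb4-203, in capitals here with 20 flanking bases on either side.
Ephb4-203, start of exon 7: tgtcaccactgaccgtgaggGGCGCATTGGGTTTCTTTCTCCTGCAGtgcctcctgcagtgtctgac
This form held 19.1, 10.2, 20.4 and 19.7% of the FPKM of the exon in WT samples 1 to 4, and 5.24, 7.46, 19.2 and 28.5% in MG53-TG samples 1 to 4. MG53-TG samples lay both below and above the WT range, and the exact permutation test gave p = 0.714 (adjusted 0.943). Transcripts that skip a 156-base exon of Ephb4 at chr5:137372385-137372540 were at most 0.000703% in WT samples, at 0.957, 1.62 and 1.61% in MG53-TG samples 1 to 3, and not listed in MG53-TG sample 4, so no test was made.

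Epha2, a receptor of the A class whose ligands include Efna1, showed the lowest log2 fold change of the members on log2(FPKM + 1). With a pseudocount of 0.1 Ephb3 was lower, at -1.64 against -1.58 for Epha2. The Epha2 gene (ENSMUSG00000006445) lies on the plus strand at chr4:141301240-141329384. It measured 17.0, 18.8, 26.4 and 21.4 FPKM in WT samples 1 to 4, and 8.81, 9.01, 5.11 and 5.29 FPKM in MG53-TG samples 1 to 4. The groups lay well apart, with the highest MG53-TG sample at 9.01 FPKM and the lowest WT sample at 17.0 FPKM. The means were 20.9 ± 4.08 and 7.06 ± 2.14 FPKM, and the log2 fold change was -1.46 ± 0.21 (SE; limma adjusted p = 0.000789; exact permutation p = 0.0286).

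Promoters were searched for CTTTGAT and CTTTGAA on both strands, the letters bound by TCF and LEF, the factors that carry the Wnt signal, since EphB receptors are known Wnt targets. The RefSeq table (GRCm38.p6), with windows of 300 bases from 250 before to 50 after each annotated start, held 8 promoters for the 7 members. The window of Epha2, chr4:141300971-141301270, was the only one of these with a match, a CTTTGAA on the strand of the gene with its first base at position -209 from the start. It is printed for that reason, with the match in capitals.
Epha2 promoter, plus strand: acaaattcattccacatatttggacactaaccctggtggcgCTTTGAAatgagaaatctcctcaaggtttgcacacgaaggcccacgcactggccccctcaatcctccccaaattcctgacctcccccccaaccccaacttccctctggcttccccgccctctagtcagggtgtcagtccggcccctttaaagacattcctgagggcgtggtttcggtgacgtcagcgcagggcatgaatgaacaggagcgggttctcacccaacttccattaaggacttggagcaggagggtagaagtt
Of 32851 promoters of this length 8.65% held either motif. The windows of Ephb2, Ephb3 and Ephb4 held neither, which says only that these letters are not in those bases.

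Efnb1, a transmembrane ligand on the X chromosome (ENSMUSG00000031217, plus strand, chrX:99136130-99148991), differed least. It measured 25.8, 24.6, 24.6 and 18.8 FPKM in WT samples 1 to 4, and 19.1, 18.8, 18.6 and 14.4 FPKM in MG53-TG samples 1 to 4. WT sample 4 fell among the MG53-TG samples, and MG53-TG sample 4 stood below the other 3 of its group. The means were 23.5 ± 3.17 and 17.7 ± 2.21 FPKM, and the log2 fold change was -0.38 ± 0.13 (SE; limma adjusted p = 0.0459; exact permutation p = 0.0857). After scaling by median of ratios it was -0.20 and the limma adjusted p was 0.225. The call was lost in 11 of 19 alternative fits, and among the fits that left out a sample it held only without WT sample 4 (limma adjusted p = 0.0208).

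Efnb2, the other transmembrane ligand of the list and the usual partner of Ephb4, was the only member that was higher in MG53-TG. The gene (ENSMUSG00000001300) lies on the minus strand at chr8:8617434-8661242. It measured 11.3, 11.5, 9.34 and 9.30 FPKM in WT samples 1 to 4, and 21.6, 19.8, 18.9 and 21.3 FPKM in MG53-TG samples 1 to 4. The MG53-TG samples lay in a narrow band above all WT samples. The means were 10.4 ± 1.21 and 20.4 ± 1.27 FPKM, and the log2 fold change was 0.92 ± 0.11 (SE; limma adjusted p = 0.000252; exact permutation p = 0.0286). With median-of-ratios scaling it was 1.10 (limma adjusted p = 0.000143). Over all genes tested 15.6% were called higher in MG53-TG.

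The Efnb2 transcripts were nearly all of the form that keeps a 93-base exon, exon 3 of Efnb2-201 at chr8:8623148-8623240, which lies in the coding part and is skipped in the annotated transcript Efnb2-202. The exon is in capitals, with 20 bases on either side.
Efnb2-201, exon 3: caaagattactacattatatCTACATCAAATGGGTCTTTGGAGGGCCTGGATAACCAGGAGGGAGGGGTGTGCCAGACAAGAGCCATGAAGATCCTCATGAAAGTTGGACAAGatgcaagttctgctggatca
Skipping transcripts were not listed in WT samples 1 and 2, were 1.49 and 1.79% of the Efnb2 FPKM in WT samples 3 and 4, and were 1.17, 0.909, 1.10 and 0.727% in MG53-TG samples 1 to 4. The form with the exon was at 10.3 FPKM in WT and 20.2 FPKM in MG53-TG in group means, so the difference in Efnb2 lay in this form.

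Efna1, a lipid-anchored ligand of EphA receptors including Epha2, was the highest member in WT organoids. The gene (ENSMUSG00000027954) lies on the minus strand at chr3:89271733-89281142. It measured 37.3, 39.8, 46.1 and 40.5 FPKM in WT samples 1 to 4, and 13.8, 17.0, 19.97 and 17.0 FPKM in MG53-TG samples 1 to 4. All MG53-TG samples were far below the WT samples. The means were 40.9 ± 3.71 and 16.9 ± 2.53 FPKM, and the log2 fold change was -1.23 ± 0.12 (SE; limma adjusted p = 0.000109; exact permutation p = 0.0286).

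Efna1 has 2 promoters in the RefSeq table, and nearly all of its FPKM came from transcripts of the downstream start. The upstream start was listed in 4 samples, at 0.203% or less of the Efna1 FPKM. The coding exon 3 of Efna1-201, at chr3:89272957-89273022, has 66 bases and is skipped in the annotated transcript Efna1-203, and it is shown in capitals as the part of the ligand that varied.
Efna1-201, exon 3: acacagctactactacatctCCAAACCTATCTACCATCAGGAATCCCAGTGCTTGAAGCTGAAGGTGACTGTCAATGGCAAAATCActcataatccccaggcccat
Skipping transcripts were 2.31, 2.24, 2.85 and 2.73% of the Efna1 FPKM in WT samples 1 to 4, and 3.42, 2.87, 1.23 and 2.76% in MG53-TG samples 1 to 4. The shares overlapped (exact permutation p = 0.914, adjusted 0.943), and in group means the skipping form was at 1.04 FPKM in WT and 0.418 FPKM in MG53-TG. None of the 6 tests of transcript forms passed, and the smallest p among them was 0.171 (adjusted 0.6). It came from the 163-base Ephb2 exon form, at 74.3 ± 22.8% in WT and 54.1 ± 24.8% in MG53-TG.

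**Figure D2:**
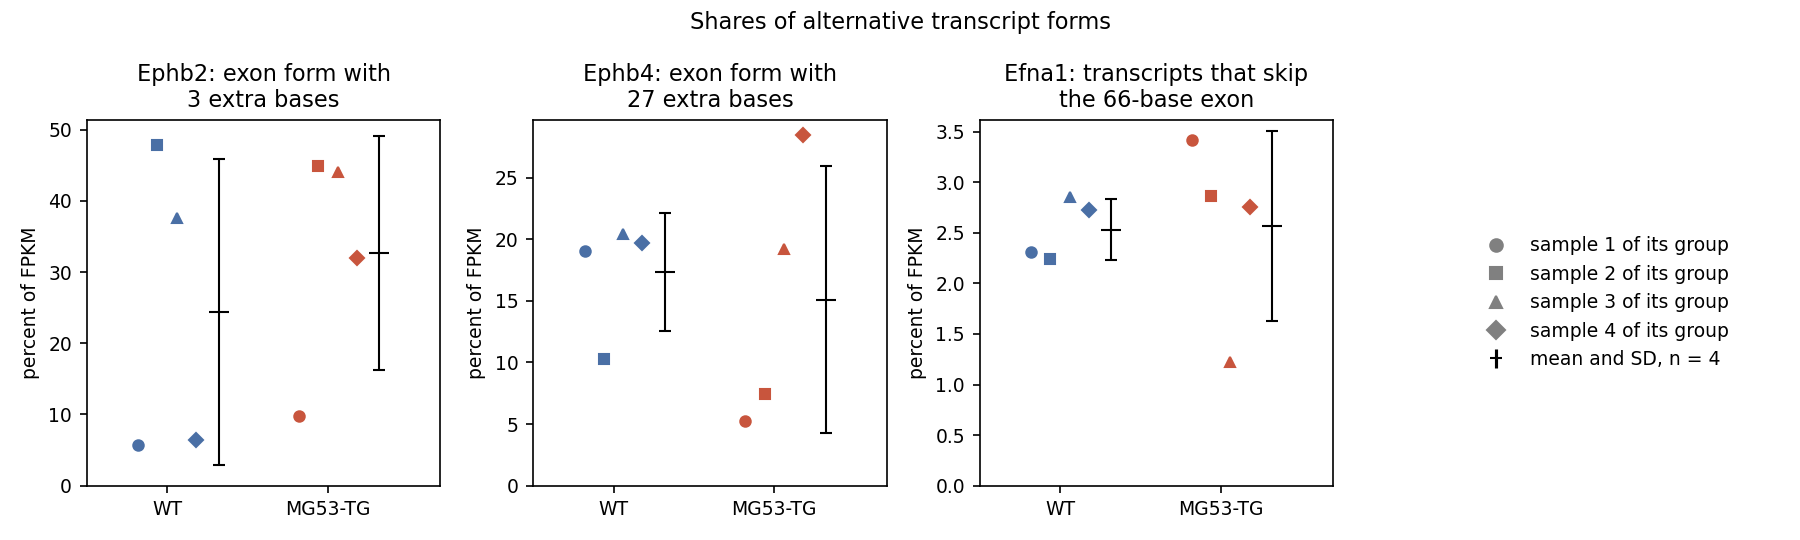
Share of an alternative form in percent of FPKM (vertical axes, from 0) in each sample, with mean and SD (n = 4), for the longer exon of Ephb2, the longer exon of Ephb4 and the skipped exon of Efna1. WT and MG53-TG points overlap in each panel.

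Relative levels of the members changed place between genotypes. FPKM are per length, so levels of different genes can be set side by side. In WT the order of mean FPKM was Efna1, Ephb4, Efnb1, Epha2, Ephb2, Efnb2 and Ephb3. The ranges of Ephb4 and Efnb1, of Efnb1 and Epha2, and of Epha2 and Ephb2 overlapped, while Efna1 stood above all others and Ephb3 below. In MG53-TG the order was Efnb2, Efnb1, Efna1, Ephb4, Ephb2, Epha2 and Ephb3. All neighbours in that order overlapped in range except Epha2 and Ephb3. Within samples, Efnb2 was above Efnb1 in all 4 MG53-TG samples. It was the highest member in samples 1, 2 and 4, while in sample 3 Efna1 was higher, at 19.97 against 18.9 FPKM. The summed FPKM of the 7 members was 135 to 150 in WT and 71.9 to 95.4 in MG53-TG.

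Ratios within a sample do not depend on the scaling between samples. Efnb2 over Efnb1 was 0.436, 0.470, 0.379 and 0.495 in WT samples 1 to 4, and 1.13, 1.05, 1.02 and 1.48 in MG53-TG samples 1 to 4. Efnb1 was thus the higher ephrin-B ligand in every WT sample and Efnb2 in every MG53-TG sample. The summed FPKM of the receptors Ephb2, Ephb3 and Ephb4 over that of the ligands Efnb1 and Efnb2 was 1.22 to 1.59 in WT and 0.387 to 0.799 in MG53-TG. For the pair of Ephb4 and Efnb2 the ratio was 2.22 to 2.72 in WT and 0.401 to 0.752 in MG53-TG, and for Ephb2 over Efnb2 it was 1.15 to 1.67 and 0.203 to 0.695. For this sum and these pairs the ratio was above 1 in every WT sample and below 1 in every MG53-TG sample, but not for the other pairs of the B class. Ephb2 over Efnb1 was below 1 in both genotypes, at 0.503 to 0.786 in WT and 0.291 to 0.730 in MG53-TG, and the groups overlapped. Ephb3 was below both ligands in every sample, with 0.350 to 0.543 over Efnb2 in WT and 0.0449 to 0.112 in MG53-TG, and 0.132 to 0.269 and 0.0469 to 0.125 over Efnb1. Ephb4 over Efnb1 was 0.997 to 1.35 in WT and 0.544 to 0.841 in MG53-TG. For the A class pair the ratio of Epha2 to Efna1 was 0.456 to 0.573 in WT and 0.256 to 0.639 in MG53-TG, and the groups overlapped.

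**Figure D3:**
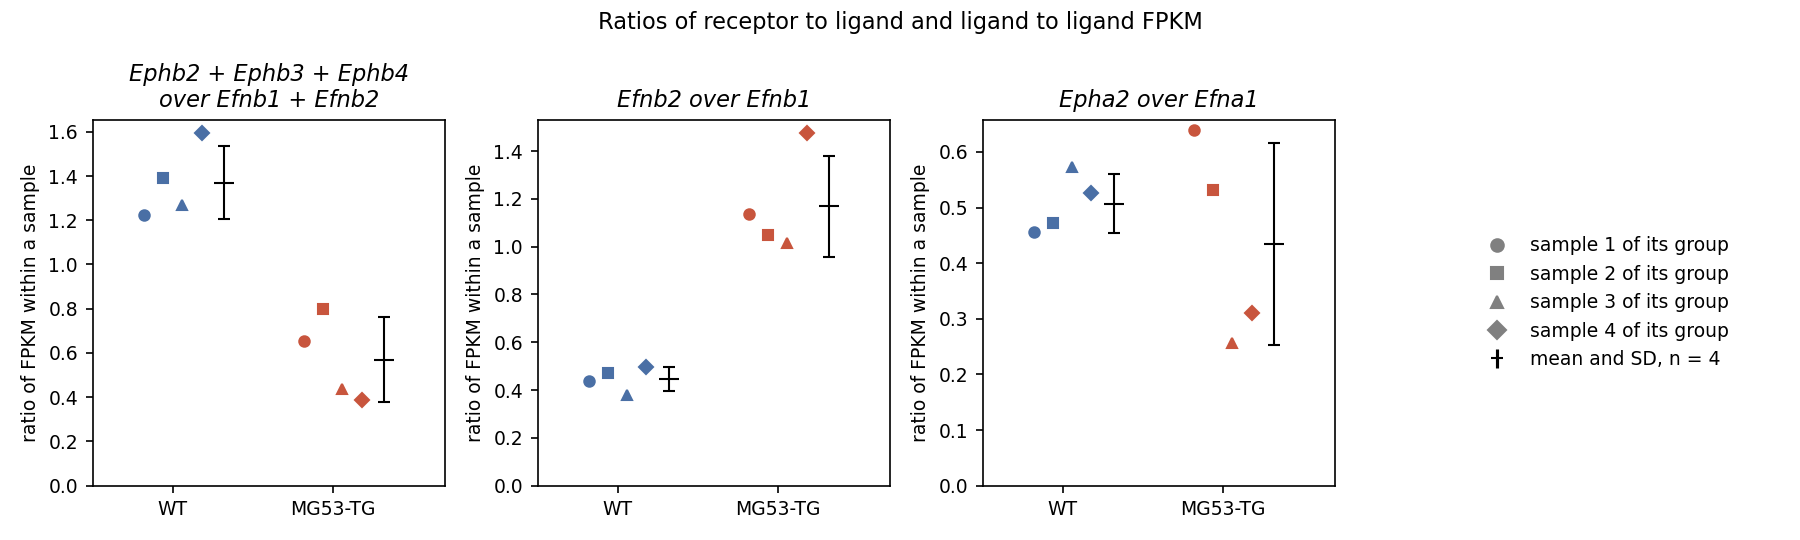
Ratios of FPKM within each sample (vertical axes, from 0), with mean and SD of each group (n = 4), for the EphB receptors over the ephrin-B ligands, Efnb2 over Efnb1, and Epha2 over Efna1. Genotypes separate in the panels of the B class and overlap in the panel of Epha2 over Efna1.

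The MG53-TG samples were not alike. Samples 1 and 2 were higher than samples 3 and 4 for Ephb2, Ephb3, Ephb4 and Epha2, by up to 3.17 times between the highest and the lowest sample for Ephb2. All values in this paragraph are as deposited. Median-of-ratios scaling divided MG53-TG samples 1 to 4 by 1.00, 1.04, 0.898 and 0.875, which narrows this split of the receptors. The ligands varied less, with 1.14 times for Efnb2, 1.32 times for Efnb1 and 1.45 times for Efna1, which was highest in sample 3. The summed stem cell markers had the same split, at 310, 323, 98.9 and 63.2 FPKM in these 4 samples, and so did a list of 14 Wnt target genes, with 101, 96.2, 48.7 and 39.3 FPKM against 185 to 235 in WT. The stem cell and Wnt lists share Lgr5, Ascl2 and Tnfrsf19, so they are not separate observations. The highest value of any stem cell marker in a sample was 292 FPKM, of Olfm4. Markers of proliferating cells summed to 404, 418, 205 and 143 FPKM in the MG53-TG samples, and to 539 to 598 in WT, and Paneth cell markers to 393, 460, 298 and 262 against 1231 to 1650. Goblet cell markers were in the other order within MG53-TG, at 181, 249, 414 and 492 FPKM, against 666 to 752 in WT. Enteroendocrine markers summed to 352, 500.4, 479 and 493 FPKM against 243 to 298 in WT. Of the 9 tested in that list, 4 were called higher and 0 lower, beside 15.6% of all genes tested called higher. Its highest value in a sample was 278 FPKM, of Chgb. Enterocyte markers were lower in MG53-TG samples 1 and 2 than in 3 and 4, at 9177, 8689, 11166.5 and 11486.5 FPKM, against 704 to 834 in WT. Of these lists the stem cell, Wnt, proliferation and Paneth lists split the MG53-TG samples as the receptors did, and the part of any list in the receptor levels was not tested.

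Markers of cells outside the epithelium were read for the whole lists. The mesenchymal list had values for 5 of 10 genes, with Pdgfra, Pdgfrb and Acta2 among those without a row, and summed to 1.80 to 3.24 FPKM in WT and 1.31 to 5.58 in MG53-TG. The immune list had values for 4 of 10 genes, without Csf1r and Itgam among others, and summed to 3.77 to 9.24 and 0.609 to 1.47 FPKM. The neural and glial list had values for 3 of 8 genes, without Sox10 and Gfap among others, and summed to 0.239 to 0.461 and 4.45 to 8.19 FPKM, with S100b as its highest gene. Their part in the values of the Eph and ephrin genes was not tested.

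Of the 22 Eph and ephrin genes of the mouse that were listed, 8 had no row in any sample and 2, Epha7 and Efnb3, were under the filter. Of the 12 tested, 3 were called higher and 7 lower in MG53-TG, and the median log2 fold change was -0.68. The 12 include the 7 members, of which 1 was called higher and 6 lower, so this count and median largely restate theirs. Outside the members, Epha1 and Efna3 were called higher and Epha4 lower. Over all genes tested 15.6% were called higher and 29.1% lower, with a median of -0.17. Outside the 7 members, Epha1, a receptor of the A class, rose from 4.47 ± 1.21 to 10.7 ± 3.77 FPKM (log2 fold change 1.06 ± 0.25 SE, limma adjusted p = 0.00976). Epha4, which binds ligands of both classes, fell from 3.83 ± 1.02 to 0.774 ± 0.194 FPKM (-1.42 ± 0.18 SE, limma adjusted p = 0.000369). The A class receptors thus did not move in the same direction, and Epha1 and Epha2 went opposite ways with no overlap between groups for either gene. Among the lipid-anchored ligands Efna3 rose from 5.78 ± 1.04 to 8.96 ± 1.00 FPKM (0.56 ± 0.14 SE, limma adjusted p = 0.0126), against the lower Efna1. Efna2, at 0.569 ± 0.243 FPKM in WT and 0.843 ± 0.324 FPKM in MG53-TG, and Efna4, at 9.32 ± 0.973 and 8.21 ± 3.77 FPKM, did not pass (limma adjusted p = 0.314 and 0.477). Their 95% intervals were -0.17 to 0.62 for Efna2 and -0.88 to 0.37 for Efna4 on the log2 scale. MG53-TG samples 1 and 2 had 11.7 and 11.2 FPKM of Efna4, and samples 3 and 4 had 4.52 and 5.41 FPKM, on either side of the WT range of 8.58 to 10.6 FPKM.

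**Figure D4:**
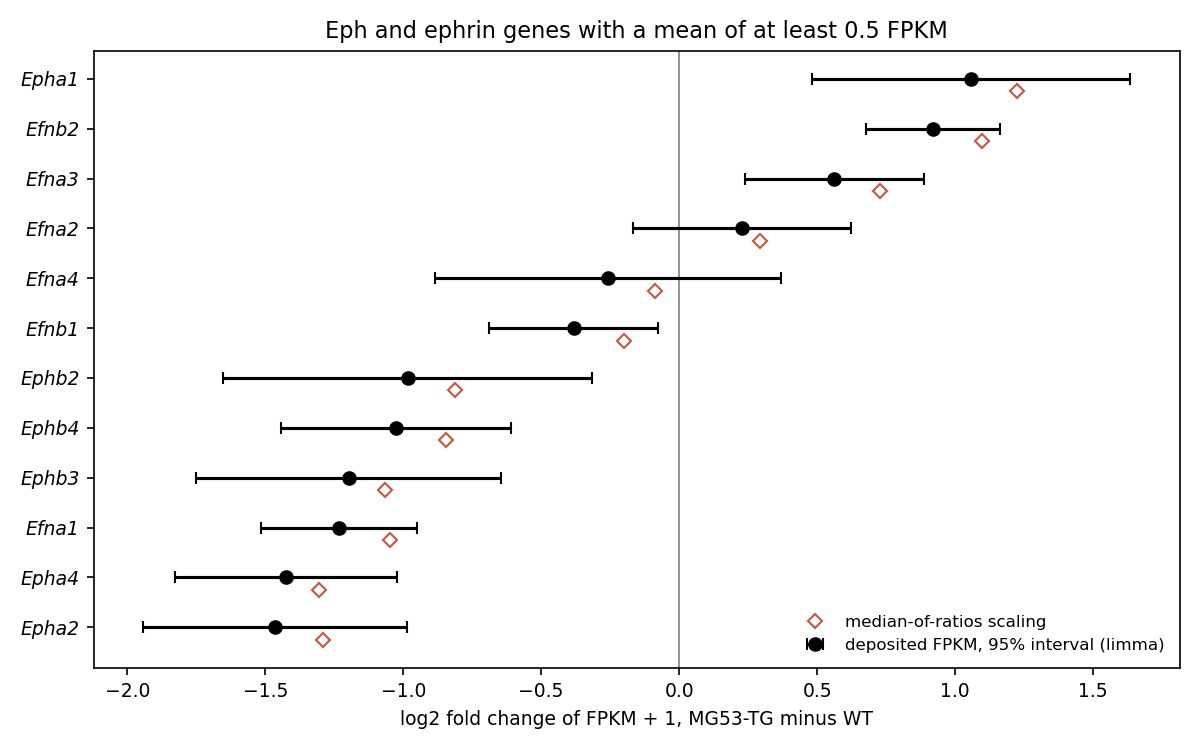
Log2 fold change of FPKM + 1, MG53-TG minus WT (horizontal axis), of the 12 Eph and ephrin genes tested, with limma's 95% interval (filled circles) and the value after median-of-ratios scaling (open diamonds). Epha1, Efnb2 and Efna3 lie above 0, Efna2 and Efna4 have intervals that include 0, and the other 7 lie below 0 with the deposited values.

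Genes that carry forward signalling from Eph receptors to the cytoskeleton were listed as adaptors, exchange factors and kinases. Of the 31 tested of 32 listed, 1 was called higher and 12 lower, with a median log2 fold change of -0.27. The share called was 41.9%, near the 44.6% of all genes tested. With median-of-ratios scaling the split was 3 higher and 9 lower. Kalrn, a guanine nucleotide exchange factor, was the gene called higher, from 3.48 ± 0.739 to 13.3 ± 1.36 FPKM (1.68 ± 0.15 SE, limma adjusted p = 4.9e-05). Its log2 fold change was smaller with events assigned by coordinates, at 0.80, and with the highest single event, at 0.93, and it was called in both. Inppl1, which encodes the lipid phosphatase SHIP2 that binds Epha2, fell from 17.5 ± 1.73 to 6.37 ± 1.29 FPKM (-1.34 ± 0.15 SE, limma adjusted p = 0.000173). Tiam1, a Rac exchange factor, fell from 5.93 ± 1.78 to 2.45 ± 1.71 FPKM (-1.11 ± 0.35 SE, limma adjusted p = 0.0299), with MG53-TG sample 2 at 4.54 FPKM inside the WT range. The call of Tiam1 was lost without WT sample 1, WT sample 4, MG53-TG sample 3 or MG53-TG sample 4 (limma adjusted p = 0.0651 to 0.0798), and that of Inppl1 with end events only (-0.36, adjusted p = 0.424).

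Of 14 listed genes of reverse signalling from ephrin-B ligands, 8 were tested, 2 were called higher and 2 lower, and the median log2 fold change was 0.17. The share called was 50%, near the 44.6% of all genes tested. The count of 4 was 2 without WT sample 1 and 2 without WT sample 2. Pdzrn3, a PDZ domain ubiquitin ligase, had 0.209 ± 0.264 FPKM in WT, and MG53-TG samples 2 to 4 had 2.04, 0.894 and 0.756 FPKM, with sample 1 treated as missing (0.86 ± 0.25 SE, limma adjusted p = 0.0255). The call of Pdzrn3 rested on that choice, since with the absent value counted as 0 the log2 fold change was 0.59 and the limma adjusted p 0.169. It was also lost without WT sample 1 (limma adjusted p = 0.0638) and without WT sample 3 (0.0615). Pdzrn3 reached the filter of 0.5 FPKM only through its MG53-TG values. Its call, 1 of the 2 higher, was therefore favoured by the filter and is no evidence of a difference. Pard6a, a polarity scaffold, fell from 2.72 ± 0.397 to 1.35 ± 0.684 FPKM (-0.71 ± 0.21 SE, limma adjusted p = 0.0249), a call lost with end events only (-0.34, adjusted p = 0.237) and without WT sample 1, WT sample 2, MG53-TG sample 3 or MG53-TG sample 4 (adjusted p = 0.0527 to 0.0660). Tjp1, which encodes the tight junction protein ZO-1, fell from 24.7 ± 1.43 to 15.6 ± 1.30 FPKM (-0.63 ± 0.10 SE, limma adjusted p = 0.00104).

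Of 14 genes of shedding and turnover, all tested, 1 was called higher and 5 lower, with a median log2 fold change of -0.20. The share called was 42.9%, near the 44.6% of all genes tested, and after median-of-ratios scaling 2 were called higher and 3 lower, with a median of -0.03. Adam10, the metalloprotease that cleaves ephrins and E-cadherin at Eph contacts, fell from 41.1 ± 8.51 to 18.8 ± 4.55 FPKM (-1.09 ± 0.19 SE, limma adjusted p = 0.00244). Adam17, a related sheddase, fell from 10.7 ± 0.797 to 5.97 ± 1.17 FPKM (-0.76 ± 0.14 SE, limma adjusted p = 0.00247). Ptpro, a receptor tyrosine phosphatase that acts on Eph receptors, fell from 6.18 ± 0.782 FPKM in WT to 1.38, 1.10 and 0.569 FPKM in MG53-TG samples 1 to 3, with sample 4 treated as missing (-1.85 ± 0.18 SE, limma adjusted p = 0.000156).

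Of 9 adherens junction genes tested of 10 listed, 3 were called lower and none higher, with a median of -0.23. The share called lower was 33.3%, near the 29.1% of all genes tested, and the median after median-of-ratios scaling was -0.04. Cdh1, which encodes E-cadherin, fell from 222 ± 4.94 to 127 ± 7.57 FPKM (-0.80 ± 0.07 SE, limma adjusted p = 5.7e-05). Vcl, the actin linker vinculin, fell from 17.9 ± 2.88 to 7.50 ± 0.468 FPKM (-1.14 ± 0.13 SE, limma adjusted p = 0.000178). Nectin2, an adhesion molecule, fell from 65.5 ± 3.02 to 45.1 ± 7.88 FPKM (-0.54 ± 0.13 SE, limma adjusted p = 0.00855), a call lost with end events only (-0.15, adjusted p = 0.380).

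Of 14 listed Wnt target genes, 12 were tested, 9 were called lower and 1, Notum, higher, with a median log2 fold change of -1.29. Over all genes tested 29.1% were called lower and 15.6% higher. Notum, a secreted Wnt inhibitor, had no row in WT samples. It reached the filter of 0.5 FPKM only through its MG53-TG values, so its call is no evidence of a difference. With a mean of at least 2 FPKM required, 9 genes of the list were called lower and 0 higher. Cd44, a surface glycoprotein of crypt cells, fell from 23.0 ± 2.79 to 3.88 ± 3.50 FPKM (-2.62 ± 0.49 SE, limma adjusted p = 0.00313). Axin2, a feedback inhibitor, fell from 53.0 ± 8.44 to 9.88 ± 6.64 FPKM (-2.54 ± 0.43 SE, limma adjusted p = 0.00194). Ascl2, a transcription factor of stem cells, fell from 7.91 ± 1.35 to 1.68 ± 1.34 FPKM (-1.87 ± 0.35 SE, limma adjusted p = 0.00315). The members called lower moved in the direction of most of this list, and Efnb2 moved in the other.

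For each member the genes most like it across the 8 samples were found by Pearson's r of log2(FPKM + 1) among 10061 other genes, as a description. The samples fall into 2 genotypes that share most of this likeness, so no test was made. Ephb2 was most like Ska1 (r = 0.989), Mms22l (0.987) and Clpp (0.985), of which Ska1 acts in chromosome segregation and Mms22l in replication repair. Ephb3 was most like Mogs (0.999), Zfp704 (0.994) and Hp1bp3 (0.994), and Ephb4 like Wdr36, Ppp1ca and Syde2 (0.998 each). Epha2 was most like Epb41l2, Qsox1 and Ajuba (0.996 each), and Efna1 like C1qtnf12 (0.992) and Scpep1 (0.991). Efnb1 was most like Mlkl (0.977), Bcl3 (0.959) and Wdr73 (0.958), and Efnb2 like Rhobtb3 (0.995), Lhpp (0.991) and Rgn (0.990). Efnb2 correlated negatively with each of the other 6 members.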

How the data were processed

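RNA from 4 WT and 4 MG53-TG organoid samples was sequenced on an Illumina platform. The authors deposited FPKM per transcript event; the submitters' processing notes name cutadapt 1.9.1, HISAT2 2.0.1, HTSeq 0.6.1, DESeq2 and the mm10 build. How events were defined is not given in the sources used here. Start events of a gene identifier were summed, or end events where their mean was higher. Of 48647 start and end events, 2230 (4.58%) matched exon boundaries of another gene only in GENCODE M21 (GRCm38) and were left out; of 36 events of the members, 35 matched their own exons. A sample without a row for a gene was taken as missing where the median of its group's other samples reached 0.5 FPKM, and otherwise as 0, which can be a failed estimate. limma 3.58.1 in R 4.3.3 was fitted on log2(FPKM + 1), with trend, for genes averaging 0.5 FPKM or more, with Benjamini-Hochberg adjustment, and was tested on simulated data. Exact tests were two-sided over 70 relabellings. The members and lists were chosen with earlier results of these data known. Named were all members, the other family genes at 0.5 FPKM or more, 3 genes per list with the largest absolute log2 fold change that passed, and 3 likest genes per member, of which 1 for Efna1 is not reported here. Alternatives were other pseudocounts, filters, scalings, event choices, gene assignment, sample weights, a block and leaving out samples.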

Additional observations from a re-analysis of the deposited data

Results flagged for a closer look

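Efnb1 in MG53-TG sample 4 was at 14.4 FPKM, apart from the other 3 samples of its group at 18.6, 18.8 and 19.1 FPKM. The gap to the nearest sample was above Dixon's critical value for 4 samples, with FPKM as deposited. Median-of-ratios scaling divided MG53-TG samples 1 to 4 by 1.00, 1.04, 0.898 and 0.875, which raises sample 4 relative to the others. No check of the scaled values is given, so the sample is set apart only as deposited. Of 24 groups checked, about 1 in 20 is set apart by chance. Without this sample the log2 fold change of Efnb1 was -0.29.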

How the results depend on the processing

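Ephb3, Ephb4, Epha2, Efna1 and Efnb2 kept their direction and their call by limma in every alternative that could be fitted. Ephb2 kept its call in 16 of 20 alternatives, and leaving out a sample gave log2 fold changes of -1.26 to -0.77. Efnb1 was no longer called with median-of-ratios scaling (-0.20), quantile normalization (-0.25), no filter (-0.38) or sample weights (-0.36), and leaving out a sample gave -0.48 to -0.29; it was called then only without WT sample 4. No direction reversed among the members. Counts of called genes moved for adherens junction genes to 5 with quantile normalization, for forward signalling to 6 with end events only (of 21 tested, against 13 of 31), and for reverse signalling to 2 with end events only (of 6 tested, against 4 of 8), to 2 with the replicate block and to 2 to 4 when a sample was left out. With a pseudocount of 0.1 log2 fold changes of low genes were larger, at 2.45 for Pdzrn3, -2.56 for Ptpro, -2.60 for Ascl2 and -2.15 for Epha4. Over all genes the count was 3515 to 4923 (4651 as reported). Efnb1 and Epha2 could not be fitted with end events only. The replicate numbers were not read as pairs: deviations of same-numbered samples correlated at 0.0276 on average and at most 0.0983, and the MG53-TG sample correlated best with its own number for 2 of 4. With the replicate block 4238 genes were called, 4053 of them also without it, and all 7 members; Pdzrn3 and Tiam1 were not called with it (limma adjusted p = 0.0679 and 0.0576). The causes of these shifts were not tested. The share of calls that were higher was 34.9% as deposited and 49.9% after median-of-ratios scaling. The depth is unknown, so no counting error could be given.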
